A study of Rattus norvegicus with 10 samples.

Results

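The RNA content of sensory axons from rat embryos at embryonic day 16 is described here from 5 of the 10 arrays of the series, those hybridised with axonal RNA of embryonic dorsal root ganglia. The members were all arrays whose titles name an embryonic donor, and genes were ranked by their mean log2 value over these 5 arrays. The series set embryonic against adult axons, and its title names axonal growth and pain as the interest. The 5 adult arrays entered no value below.

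Sensory neurons that carry touch, pain and body position to the spinal cord have their cell bodies in the dorsal root ganglia. Per the labels' protocols, explanted ganglia grew for 4 days in a chamber with compartments, and axons longer than 1 cm were taken from the outer compartment and lysed in Trizol. No genotype, treatment, sex or strain is given, and the sources used here do not state if embryos were pooled for an array. The labels call the 5 samples biological replicates. The design text calls the RNA purely axonal. An explant also holds glia, fibroblasts, vessels and blood cells of the ganglion, so RNA of other cells was looked for by marker genes. In such bulk RNA, fewer cells or axons of a type and less RNA per cell cannot be told apart.

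Axons carry their own messenger RNA, which is moved from the cell body in granules with RNA-binding proteins along microtubules by kinesin motors. Local translation of these transcripts serves growth cone turning, the supply of mitochondria with new subunits and the response to injury. Transcripts of ribosomal proteins, mitochondrial proteins and cytoskeletal proteins are known as classes that reach axons, while transcripts of nuclear regulators and many membrane receptors are better known from the cell body.

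The arrays gave 14217 genes with a probe set of their own symbol, 1 probe set per gene. A gene was called above background on an array where its value exceeded the 95th percentile of 101 probe sets for 87 genes restricted to other tissues, such as pancreas or testis. By this measure 4337 genes, or 30.5% of all, were above background on all 5 arrays, and 3596 were above it on none. The number above background ranged from 5752 on replicate 3 to 9393 on replicate 1, and the background level itself from 2.96 on replicate 1 to 4.09 on replicate 3. Across the 14217 genes, which are not independent of each other, Pearson's r between pairs of arrays ran from 0.71 for replicates 3 and 4 to 0.90 for replicates 1 and 5. The actin control probe set at the 3′ end of the transcript read 4.34 to 5.52 above that at the 5′ end. The number of arrays limits the precision of every mean below. A probe set's signal also depends on how well its probes bind, so a rank orders signals and is only a guide to the order of transcript numbers.

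Ribosomal protein transcripts were the most numerous group at the top of the ranking, from rank 3 on. Of 42 cytosolic ribosomal protein genes measured, 27 were among the 100 highest genes, a class that holds 0.703% of all genes, and 36 were among the 500 highest, which hold 3.52%. Their median mean level was 10.74, against 3.86 for all genes. Rps23, of the small subunit near the decoding centre, read 12.73, 12.93, 12.37, 12.42 and 12.88 on replicates 1 to 5. Rps29, a small zinc-binding protein of the small subunit, read 12.40, 12.59, 12.35, 12.14 and 12.63. Rpl41, the shortest protein of the large subunit, read 12.15, 12.36, 12.22, 12.02 and 12.27. All 5 arrays placed these transcripts far above background and within narrow limits. Rpl39, of the large subunit, was lower at 4.53 ± 0.22 (SD, n = 5). Rps13, Rpl30 and Rpl28 were above background on no array, at 2.57, 2.57 and 2.34, and were the only listed ribosomal genes so. The list named 79 genes, and the rest lacked a probe set of their own symbol.

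Ribosomal protein messengers are known for a 5′ terminal tract of pyrimidines, through which the growth-related kinase mTOR sets their translation. The start regions below, from the RefSeq promoter table of the rat assembly GRCr8, are shown because these genes lead the ranking. Each runs from 15 bases before the annotated start through the first 15 bases of the transcript, and capitals mark a C at the annotated start followed by 4 bases that are each C or T, read on the gene's strand. Rpl35 lies at chr3:43165907-43165936 on the minus strand, Rpl19 at chr10:83519049-83519078 on the plus strand, Rps3a at chr2:173827028-173827057 on the minus strand, Rpl22 at chr5:168117946-168117975 on the plus strand, Rpl35a at chr11:81235007-81235036 on the minus strand and Rplp0 at chr12:46718376-46718405 on the minus strand. Rpl41 at chr7:1563483-1563512 on the minus strand and Rpsa at chr8:128728864-128728893 on the plus strand are shown as highly ranked ribosomal genes without the tract within 10 bases of the annotated start.
Rpl35: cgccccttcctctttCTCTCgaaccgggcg
Rpl19: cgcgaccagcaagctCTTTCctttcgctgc
Rps3a: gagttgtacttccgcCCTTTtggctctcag
Rpl22: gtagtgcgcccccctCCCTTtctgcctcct
Rpl35a: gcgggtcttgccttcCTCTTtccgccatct
Rplp0: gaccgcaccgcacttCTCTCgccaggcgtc
Rpl41: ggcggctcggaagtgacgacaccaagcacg
Rpsa: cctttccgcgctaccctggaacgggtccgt
The tract was at the annotated start in 11 of the 35 ribosomal genes with a start in the table (31.4%), against 307 of 11700 genes of the array (2.62%). It lay within 10 bases of the start in 24 of the 35 (68.6%), against 28.8% of all. Among the 100 highest genes that code for no ribosomal protein it was at the start in 0 of 58, a small number against a share of 2.62%, and within 10 bases in 23 (39.7%). Of 62 genes of oxidative phosphorylation, whose transcripts were also high, 0 had it at the start. A match is a property of the annotated letters, and 6012 promoter entries are further starts of genes already listed, of which the first was used.

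The highest other start regions, for Myh1 at chr10:52384897-52384926, Klc1 at chr6:136644585-136644614, Tubb2b at chr17:30953071-30953100 and Tp53inp2 at chr3:164342122-164342151, all on the plus strand of GRCr8, are given in the same way for contrast, and none holds the tract at the start. Myh1 does hold it within 10 bases, as a ctttc that begins at the base after the annotated start and is left unmarked.
Myh1: aatgagaatgacttgtctttcctcataaag
Klc1: gcggagggtggcgcgaggctgcggagcgcg
Tubb2b: ctcagcccgtcggttccggagtaagttcca
Tp53inp2: cccctttgtgacgtcacaatcagctgttga
These 4 genes hold ranks 6, 7, 11 and 13 of the embryonic axon ranking.

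**Figure D1:**
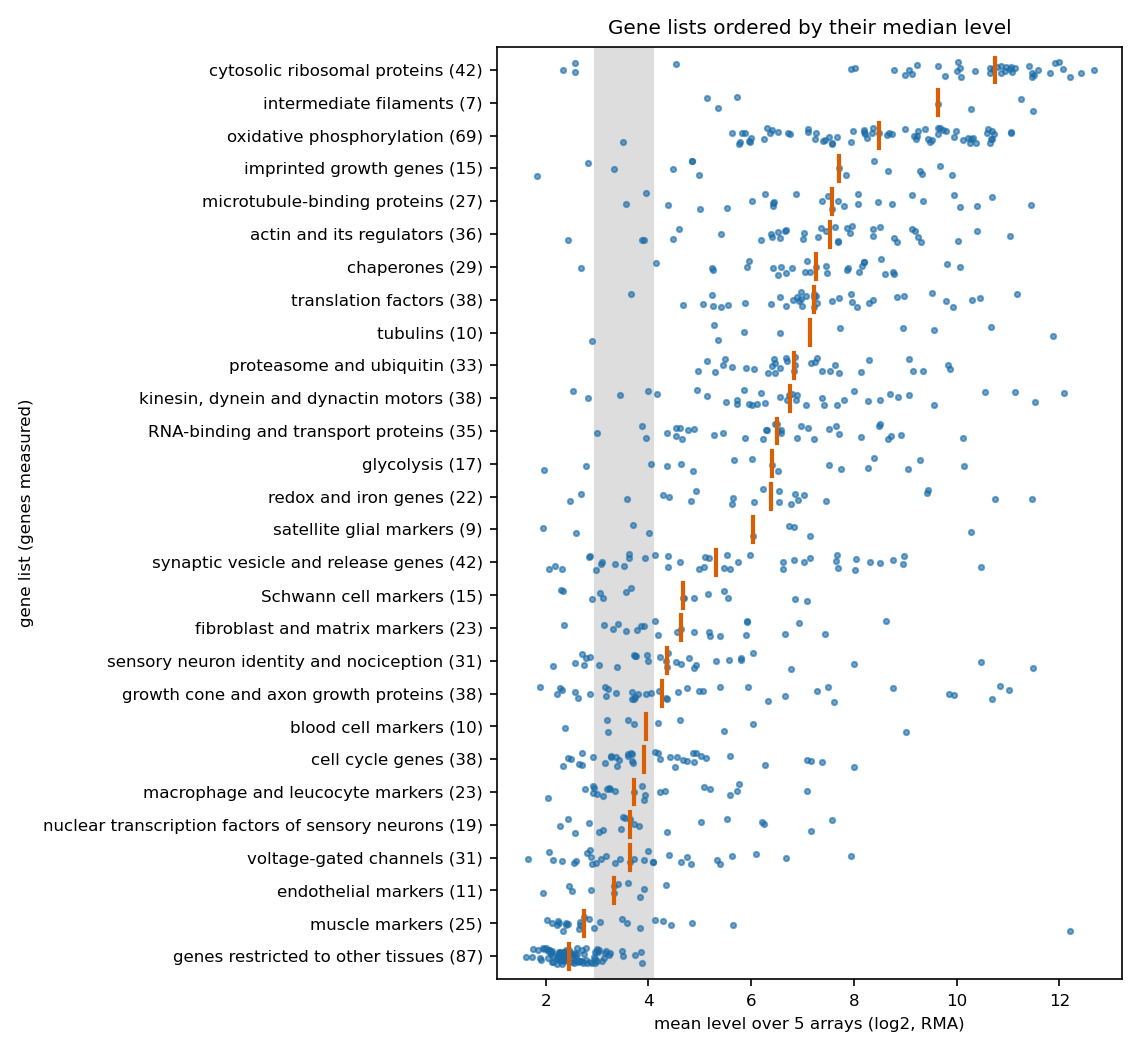
Each point is the mean log2 level of a gene over the 5 embryonic arrays, by gene list, with the number of genes measured in brackets, the list's median as an orange bar and the span of the 5 background levels (2.96 to 4.09) in grey. Ribosomal proteins have the highest median, 10.74, and genes restricted to other tissues the lowest, 2.46.

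Other parts of the translation machinery were spread lower. Of 38 translation factors, 33 were above background on all arrays and 3 were among the 100 highest genes, with a list median of 7.22. Eef1a1, which brings aminoacyl-tRNA to the ribosome, read 11.35, 11.08, 10.77, 11.03 and 11.60. Eef1b2, its exchange factor, averaged 10.46 ± 0.51, and Eif4g2, an initiation factor of the eIF4G family, 10.29 ± 0.36. Eef1a2, the form of the elongation factor that replaces Eef1a1 in mature neurons and muscle, was at 3.67 ± 0.42 and above background on 3 arrays. RNA-binding and transport proteins had a median of 6.50, with 24 of 35 genes above background on all arrays. The helicase Ddx5 stood highest at 10.12 ± 0.75, and the poly-C binding protein Pcbp2 followed at 8.92 ± 0.20. Igf2bp1, which carries beta-actin messenger into growth cones, was at 2.99 ± 0.84 and above background on 2 arrays, while its relative Igf2bp2 was at 7.65 ± 1.01 and above background on all 5.

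The first ranks were held by transcripts of mitochondrial DNA. COX1, a catalytic subunit of cytochrome c oxidase encoded in mitochondrial DNA, had the highest value of any gene, at 14.32, 14.36, 14.33, 14.17 and 14.23. COX2, another mitochondrially encoded subunit of this enzyme, ranked second at 12.68, 12.83, 13.49, 13.20 and 12.37. The COX1 values lay within 0.19 of each other and the COX2 values were more spread, with replicate 3 highest and replicate 5 lowest. Of 69 measured nuclear genes of oxidative phosphorylation, 66 were above background on all arrays, 41 were among the 500 highest and 15 among the 100 highest, with a list median of 8.48. Among the leading ones were the ATP synthase subunits Atp5mf (11.06 ± 0.31) and Atp5f1e (11.05 ± 0.24) and the complex I subunit Ndufa1 (10.72 ± 0.94). Glycolysis had a median of 6.40 over 17 genes, of which 11 were above background on all arrays. Its highest member was phosphoglycerate mutase Pgam1 at 10.15 ± 0.34, followed by Ldha at 9.29 ± 0.52 and Aldoa at 9.05 ± 0.71, while the hexokinase Hk2 was at 1.97 ± 0.27 and above background on no array.

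Transcripts of the axonal cytoskeleton ranked high, led by single members of each family. Tubb2b, a beta-tubulin of developing neurons, read 12.07, 12.08, 11.32, 11.77 and 12.18. Tubb2a followed with 11.96, 10.78, 10.17, 9.25 and 11.19. Replicate 1 was highest for Tubb2a and replicate 4 lowest, a spread that Tubb2b did not have. Tubb3, the tubulin used as a neuronal marker, averaged 7.72 ± 0.69. Among 7 intermediate filament genes, peripherin (Prph), the filament of peripheral neurons, read 12.06, 11.47, 11.45, 10.18 and 12.29. The middle neurofilament chain Nefm read 11.81, 11.79, 11.32, 10.04 and 11.32, and the light chain Nefl 10.25, 9.41, 8.86, 9.85 and 9.85. Replicate 4 was lowest for Prph and Nefm and not for Nefl. The heavy chain Nefh, a filament of mature axons, was at 5.15 ± 1.93. Vimentin (Vim), made by glia, fibroblasts and immature neurons, was at 10.28 ± 0.55.

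Among 27 microtubule-binding genes the median was 7.58 and 21 were above background on all arrays. Apc2 and Apc, which bind microtubule ends and beta-catenin, averaged 11.45 ± 0.42 and 10.39 ± 0.40. Their partner beta-catenin (Ctnnb1) read 11.64, 11.99, 11.23, 11.84 and 11.22. Map1b, a microtubule-associated protein of growing axons, averaged 10.06 ± 0.76. The tau gene Mapt was at 8.75 ± 1.45 and doublecortin (Dcx), of migrating and growing neurons, at 7.58 ± 2.37. Stmn2, a tubulin-binding protein of growth cones, read 11.96, 11.43, 10.83, 6.99 and 12.19, and Dcx read 9.30, 8.16, 7.38, 3.61 and 9.43. In both genes replicate 4 stood far below the other arrays.

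Conventional kinesin was among the highest transcripts as a set. The light chain Klc1 read 12.43, 12.28, 12.23, 11.50 and 12.05. The heavy chain Kif5a read 11.46, 11.76, 11.74, 11.62 and 10.98, Kif5b averaged 11.14 ± 0.32, and Kif5c read 10.60, 10.68, 10.47, 10.58 and 10.39. Trak2, an adaptor that ties kinesin to mitochondria, read 11.85, 11.78, 11.75, 10.01 and 11.30. All 3 heavy chains and Klc1 were in the top 100, and they were the only members of the 38 motor genes there. The vesicle motor Kif1a averaged 8.86 ± 0.52, the dynein light intermediate chain Dync1li2 9.55 ± 0.84 and the dynein heavy chain Dync1h1 7.66 ± 0.69. The motor list as a whole had a median of 6.76, with 27 genes above background on all arrays. Klc1 also had probe sets at 5.48, 4.43 and 3.13, so the rank rests on 1 of 4 probe sets.

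The actin group had a median of 7.54, with 31 of 36 genes above background on all arrays. Gamma-actin (Actg1) read 11.58, 10.98, 10.14, 10.68 and 11.80. Actb lacks a probe set of its own symbol and is seen only through a control probe set at the 3′ end, which read 9.30, 8.71, 8.54, 9.18 and 9.78. Thymosin beta 4 (Tmsb4x), which holds free actin monomers, closed the top 100 at 10.03 ± 0.40, just above the ribosomal gene Rpl11 at 10.02. The Arp2/3 subunit Actr2 averaged 10.39 ± 0.66.

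Growth cone transcripts were led by a few genes. Of 38 measured genes for growth cone and axon guidance proteins, 13 were above background on all arrays, a share near the 30.5% of all genes. The top 500, which hold 3.52% of all genes, included 6 of the 38, and the median was 4.27. Gap43, the phosphoprotein of growing axon tips, read 12.28, 11.32, 10.48, 10.02 and 10.98. Nrep, a small protein linked to regeneration, averaged 10.85 ± 0.38, and the membrane protein Basp1 averaged 9.85 ± 0.46. Guidance receptors lay lower. Nrp1, a semaphorin receptor, was at 4.37 ± 1.31 and above background on 3 arrays. Dcc and Unc5c, which bind netrin, were above background on none, at 3.16 ± 0.53 and 2.28 ± 0.22. Gap43 had another probe set at 1.77, below background on every array.

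Of 31 genes of sensory identity and nociception, 11 were above background on all arrays, a share near the 30.5% of all genes, and 5 were above it on none. Their median was 4.36, against 3.86 for all genes. Besides Prph, gamma-synuclein (Sncg), abundant in sensory neurons, averaged 10.47 ± 0.74. Calca, the precursor of the pain peptide CGRP, read 10.76, 7.72, 7.38, 5.06 and 9.04, high on replicates 1 and 5 and lowest on replicate 4. Its other probe sets averaged 3.98 and 2.89 and were above background on 3 and 1 arrays. The nociceptor sodium channel Scn10a read 7.34, 4.95, 8.27, 6.12 and 7.16. The ATP receptor P2rx3 averaged 5.57 ± 1.15 and the heat receptor Trpv1 3.74 ± 1.69, above background on 2 arrays. Among voltage-gated channels the median was 3.63, and 0 of 31 were in the top 500. The highest was the sodium channel subunit Scn3b at 7.94 ± 1.67.

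Synaptic vesicle genes had a median of 5.32, with 20 of 42 above background on all arrays. Besides Sncg, the highest were complexin 1 (Cplx1) at 8.97 ± 0.87 and the synaptotagmin-like gene Sytl3 at 8.95 ± 0.32. Syt1, the calcium sensor of release, was at 3.07 ± 0.85 and above background on 1 array. Nuclear transcription factors of sensory neurons had a median of 3.65, and 6 of 19 were above background on all arrays. Etv1, a factor of proprioceptive neurons, was at 7.58 ± 1.44 and Runx1, of nociceptors, at 7.17 ± 0.88. Isl1, common to sensory neurons, read 4.89, 4.52, 4.56, 5.01 and 6.12, and Pou4f1 was at 3.51 ± 0.76 and above background on 3 arrays. Of the markers of the labelled sensory neurons, the highly ranked Prph, Nefm, Nefl and Sncg were above background on all arrays, while Trpv1 and Pou4f1 were not. The 6 of 19 nuclear factors were a share near the 30.5% of all genes.

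Protein quality control was widely detected. Of 33 proteasome and ubiquitin genes, 31 were above background on all arrays, with a median of 6.84, and the catalytic subunit Psmb5 stood highest at 9.86 ± 0.33. Of 29 chaperones, 25 were above background on all arrays, with a median of 7.26. The prolyl isomerase Fkbp1a led them at 10.07 ± 0.32, followed by the mitochondrial co-chaperonin Hspe1 at 9.82 ± 0.27. Thioredoxin (Txn1), which reduces protein disulphides, had rank 19 with values of 11.46, 11.41, 11.50, 11.44 and 11.56. Peroxiredoxin 2 (Prdx2), which takes electrons from thioredoxin, averaged 10.75 ± 0.20.

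Of the 100 highest genes, 70 were on the gene lists and 30 were not. The latter included Tp53inp2, an autophagy and transcription regulator, at 11.82, 12.39, 12.09, 10.72 and 11.56. The fatty acid binding protein Fabp5, known from nerve injury, averaged 11.15 ± 0.43, and cyclin I (Ccni), a cyclin of postmitotic cells, averaged 11.10 ± 0.59. Gosr1, a Golgi SNARE, averaged 10.96 ± 0.57, with replicate 4 highest at 11.63. Calmodulin (Calm2) averaged 10.04 ± 0.76 and the ribosome-bound scaffold Rack1 10.05 ± 0.35.

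**Figure D2:**
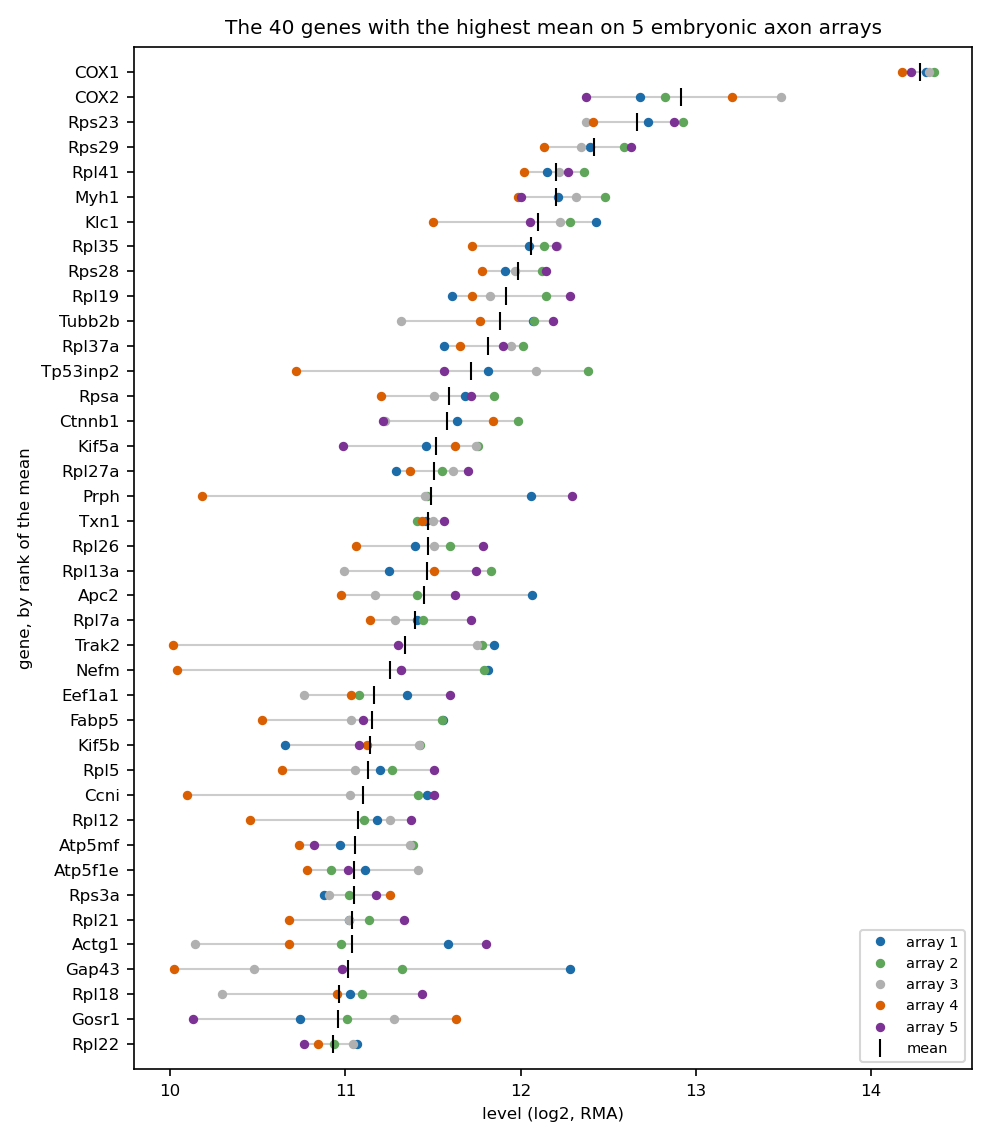
The 40 genes with the highest mean are shown with the log2 level on each embryonic array as a coloured point, the range as a grey line and the mean as a black bar. Ribosomal protein genes have short ranges, while for Prph, Trak2, Nefm and Ccni the value of replicate 4 lies apart at the low end (10.18, 10.01, 10.04 and 10.10).

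Myh1, a myosin heavy chain of fast skeletal muscle, held rank 6 with values of 12.21, 12.48, 12.32, 11.99 and 11.9997. Its other 4 probe sets averaged 11.04, 10.78, 9.66 and 8.89, and all 5 were above background on every array. Other genes of the contractile apparatus did not share this level. Of 25 measured muscle genes 5 were above background on all arrays, 12 were above it on none, and the median was 2.75. The muscle creatine kinase Ckm, desmin (Des) and the muscle regulator Myod1 were above background on 0 arrays, at 2.12, 2.94 and 2.21. After Myh1 the highest of the list were the troponin Tnnc1 at 5.65 ± 1.29 and skeletal actin Acta1 at 4.84 ± 0.53. The part of muscle RNA or of other transcripts in the Myh1 signal was not tested.

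Where a gene had several probe sets, these often differed. The median difference between the highest and the lowest was 1.54 on the log2 scale over 4525 such genes, and 417 genes (9.22%) differed by 4 or more. Of the 30 top genes with several probe sets, 20 differed by at least 4 and 14 had all probe sets above background on every array. Beta-catenin had probe sets at 11.58, 9.91, 3.13 and 2.01, Kif5a at 11.51, 8.22 and 7.06, and Apc2 at 11.45 and 9.78. Taking the mean of a gene's probe sets kept 76 of the 100 highest genes in the top 100.

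Markers of other ganglion cells were mixed. The counts above background on all arrays stand beside a share of 30.5% among all genes. Schwann cell markers had 5 of 15 genes above background on all arrays, near that share, with a median of 4.68. Among them Cnp, an enzyme of myelin-forming glia, was at 7.08 ± 1.06 and Pmp22, a myelin membrane protein, at 6.86 ± 0.71. Mag and Mal, of compact or periaxonal myelin, were above background on no array. Of 9 satellite glial markers 4 were above background on all arrays, Fabp7, Glul, Gja1 and Vim, and the potassium channel Kcnj10 on none. Fibroblast and matrix markers had 11 of 23 genes above background on all arrays, the collagen Col5a2 at 8.62 ± 1.04 and periostin (Postn) at 7.43 ± 1.48. Endothelial markers had 2 of 11, with Pecam1 at 1.95 ± 0.37 and above background on none. Cell cycle genes had 17 of 38, with a median of 3.91, and the proliferation marker Mki67 was at 3.60 ± 0.33.

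Haemoglobin was prominent among blood markers. Hbb, a beta-globin gene, read 9.0, 10.34, 10.18, 7.81 and 7.77, higher on replicates 2 and 3 than on the others. A probe set shared by the beta-globin genes Hbbl1 and Hbb-bs, which stands outside the ranking because it has 2 symbols, read 12.14, 12.81, 12.61, 11.94 and 10.57, at position 19 of all probe sets and lowest on replicate 5. The other blood genes of the list had lower means than Hbb, the embryonic globin Hbe1 at 6.04 ± 0.64 and the globin chaperone Ahsp at 5.47 ± 1.37, and the list's median was 3.96. Alas2, the haem enzyme of red cell precursors, was at 3.22 ± 0.60 and above background on 1 array.

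Imprinted genes, expressed from a single parental allele and active in fetal growth, were unevenly represented. Of 15 measured, 8 were above background on all arrays, 6 were in the top 500 and the median was 7.70. Gnas, the stimulatory G protein alpha subunit, averaged 9.90 ± 0.61. The cell cycle inhibitor Cdkn1c read 9.25, 10.42, 9.47, 10.68 and 8.58, and the non-coding RNA H19 read 8.75, 9.79, 9.95, 10.04 and 7.92. Both were lowest on replicate 5 and highest on replicate 4, and Igf2, the fetal growth factor next to H19, read 7.08, 8.66, 7.61, 9.41 and 6.45, also highest on replicate 4 and lowest on replicate 5. The non-coding RNA Meg3 read 8.27, 6.24, 9.97, 6.72 and 10.75, with replicate 5 highest. Fibroblast and matrix markers were likewise lowest on replicate 5 by summed level (9.43, against 10.28 to 11.47 on the other arrays) and highest on replicate 4, and their part in the levels of Igf2, H19 and Cdkn1c was not tested. Dlk1 and Peg10, both active in fetal tissue, were above background on no array.

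Genes were called steady where they were above background on all 5 arrays and their values lay within 1 on the log2 scale, which is a doubling. There were 682 such genes, 4.8% of all, and their share was largest at the top of the ranking. Of the 100 highest genes 59 were steady, of ranks 101 to 500 87 of 400, of ranks 501 to 1000 55 of 500, of ranks 1001 to 2000 85 of 1000, of ranks 2001 to 4000 112 of 2000 and of ranks 4001 to 8000 284 of 4000. The median SD of genes rose from 0.36 in the top 100 to 1.04 at ranks 2001 to 4000, and was 0.42 beyond rank 8000, where no gene was above background on every array. RMA compresses differences between weak signals. Without replicate 3 the count of steady genes was 1383 and without replicate 4 it was 1341, and with fewer arrays a range can only shrink.

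By function, 30 of 42 ribosomal protein genes were steady, as were 22 of 69 genes of oxidative phosphorylation and 9 of 38 translation factors, beside 4.8% of all genes. Of these lists 27, 15 and 3 genes were in the top 100, where 59% of genes were steady. At ranks 101 to 500 the steady share was 21.75%. These counts thus do not separate function from level. Of 7 intermediate filament genes 0 were steady and of 38 growth cone genes 1 was, counts too small to set against the 4.8%. Txn1 had the smallest SD among levels from 10 to 12, at 0.06, followed by the ATP synthase subunit Atp5mc3 (10.26 ± 0.09), the ribosomal genes Rpl35a and Rpl22, Kif5c (10.54 ± 0.11) and Mrfap1 (10.84 ± 0.15), which binds chromatin regulators. Above 12 the steadiest were COX1 (SD 0.08), Rpl41 (0.13), Rps29 and Rpl35 (0.20 each), Myh1 (0.21) and Rps23 (0.26). Between 8 and 10 the purine salvage enzyme Aprt led at 8.87, 8.95, 8.77, 8.93 and 8.90. The mitochondrial pyruvate carrier Mpc2 (8.06 ± 0.10), cytochrome c1 (Cyc1, 9.23 ± 0.11) and Park7, a redox protein (8.03 ± 0.13), followed with the mitochondrial ribosome protein Chchd1 and the translocon subunit Sec61g. The steadiest genes thus included members for ribosomes, respiration, kinesin transport and redox balance. For Kif5c this rests on 1 of 3 probe sets, as the others ran from 4.21 to 7.44 and from 2.56 to 5.72.

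**Figure D3:**
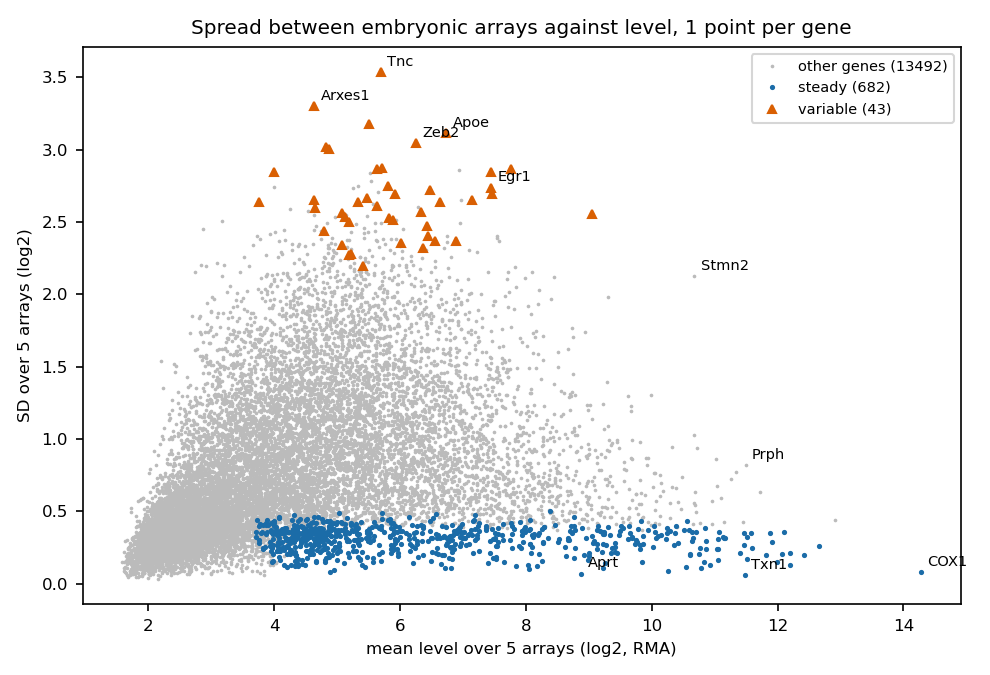
The SD over the 5 embryonic arrays is plotted against the mean log2 level for each of 14217 genes, with 682 steady genes in blue and 43 variable genes as orange triangles. The spread is widest at middle levels, the steady genes form the lower edge, and COX1 and Txn1 lie at SDs of 0.08 and 0.06, while Stmn2 stands out among high genes at 2.13.

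A gene was called variable where it was above background on at least 2 arrays and its values spanned 6 or more on the log2 scale. There were 43, or 0.302% of all genes. Replicate 5 held the highest value of 19 of them and replicate 4 of 14, while the lowest value was on replicate 3 for 19 and on replicate 4 for 16. Without replicate 4 the count was 17 and without replicate 3 it was 26, again with fewer arrays to span. With the mean of a gene's probe sets it was 19. None of the 42 ribosomal and 69 oxidative phosphorylation genes was variable, but these lists are too short to set against a share of 0.302%.

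Tenascin C (Tnc), a matrix protein of glia and fibroblasts, read 6.84, 7.53, 1.96, 10.02 and 2.14, so it was among the stronger genes on replicate 4 and below background on replicates 3 and 5. Zeb2, a transcription factor of Schwann and neural crest cells, read 5.81, 8.54, 1.86, 9.65 and 5.38, by 1 of 5 probe sets. Another Zeb2 probe set, above background on all arrays, ran from 4.39 on replicate 3 to 7.56 on replicate 4. A further one, also above background on all arrays, read 4.37, 5.11, 5.46, 4.85 and 3.87, highest on replicate 3. Apolipoprotein E (Apoe), a lipid carrier of satellite glia and macrophages, read 11.02, 7.19, 3.93, 3.49 and 8.05. By the probe sets with the highest mean, Tnc and Zeb2 thus had their maximum on replicate 4 and Apoe on replicate 1. On replicate 1 macrophage and leucocyte markers were also highest, with a summed level of 11.35, against 8.70 to 8.92 on the other arrays. Above background were 18 of 23 there, against 5 to 11 on the others. Of all 14217 genes 9393 were above it on replicate 1, against 5752 to 8761 on the others. The leucocyte markers Aif1 and Itgam were above background on no array, and the part of macrophage RNA in the Apoe level was not tested.

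The lists of synaptic vesicle, microtubule-binding and growth cone genes held 0 variable genes and that of sensory identity 1. These lists are also too short to set against the 0.302% of all genes. The variable genes given next, grouped after their values were seen, have known roles in neurons. Trim2, a ubiquitin ligase that acts on neurofilament light chain, read 10.90, 8.94, 6.34, 3.54 and 9.08. Snap91, a clathrin adaptor of synaptic vesicles, read 9.34, 7.69, 7.0, 2.72 and 8.99. Fgf13, which binds microtubules and sodium channels, was the only variable gene in the top 500 and read 10.25, 10.33, 9.31, 4.58 and 10.76. In all 3 genes replicate 4 was lowest. The secretogranin Scg2, of dense-core vesicles, read 5.73, 2.54, 4.21, 2.06 and 8.59, and the microtubule-severing ATPase Spast, whose human mutations cause spastic paraplegia, read 5.80, 1.73, 2.61, 1.75 and 8.13. Both genes were highest on replicate 5, with replicate 1 the next highest. The other Spast probe set read 5.17, 2.94, 2.61, 4.06 and 3.04, highest on replicate 1.

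Egr1, an immediate early transcription factor, read 7.82, 9.41, 5.91, 3.65 and 10.47, and the chemokine receptor Cxcr4 read 6.53, 3.16, 2.72, 2.37 and 9.34. The sterol demethylase Cyp51, of cholesterol synthesis, read 8.42, 6.91, 2.78, 9.05 and 10.07. All 3 were highest on replicate 5 by these probe sets. The other Cyp51 probe set, above background on all arrays, read 4.90, 4.91, 5.12, 6.11 and 5.67, highest on replicate 4. The rest of the 20 widest were Arxes1, Ogt, Lgals8, Hcfc2, Gpr19, Nars1, Rimoc1, Pgm2l1, Atp6ap2 and Gask1b. Of these the glycosyltransferase Ogt, the nuclear factor Hcfc2 and the secretory pathway protein Gask1b were highest on replicate 4, the galectin Lgals8 on replicate 3 and the other 6 on replicate 5. The other Lgals8 probe set was highest on replicate 2, at 5.96, against 2.98 on replicate 3. The other Rimoc1 probe set was highest on replicate 1, at 7.16, against 6.97 on replicate 5.

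**Figure D4:**
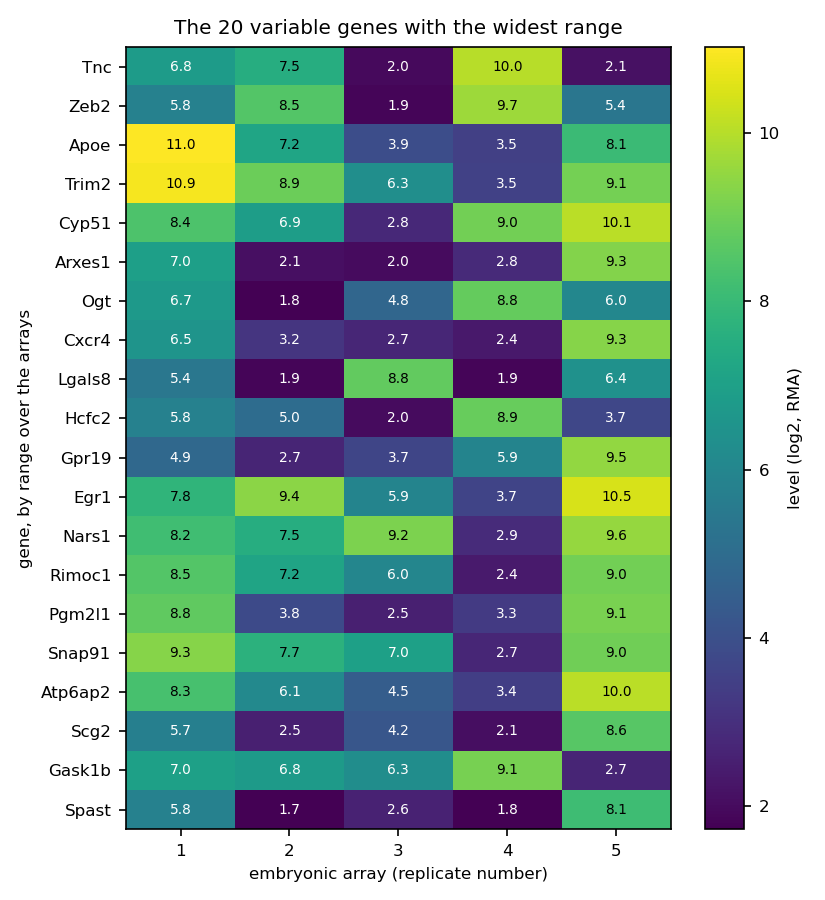
The 20 variable genes with the widest range are listed by range, with the log2 level on each of the 5 embryonic arrays printed and shaded from low (dark) to high (light). Rows differ in which array is high: Tnc and Zeb2 on replicate 4, Apoe and Trim2 on replicate 1, and Cxcr4, Egr1 and Spast on replicate 5.

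The arrays differed in whole groups as well as in single genes. They are given by percentile rank on an array, where 100 is the highest gene. This scale itself shifted for weak genes, since the genes restricted to other tissues had a median percentile of 15.5, 19.6, 24.2, 23.9 and 15.9 on replicates 1 to 5. The median ribosomal protein gene held percentile 99.4 to 99.6 on every array and the median oxidative phosphorylation gene 94.98 to 98.1. Synaptic vesicle genes ranged from 60.5 on replicate 4 and 64.3 on replicate 3 to 80.4 on replicate 5 and 80.5 on replicate 1. The Gapdh control difference between its 3′ and 5′ probe sets, 5.46, 4.36, 3.93, 3.62 and 5.10 on replicates 1 to 5, was likewise lowest on replicate 4 and highest on replicate 1. That of actin, 5.15, 4.49, 4.34, 5.19 and 5.52, had another order, lowest on replicate 3 and highest on replicate 5. The part of these differences in the synaptic ranks was not tested. Fibroblast and matrix markers ranged from 51.8 on replicate 5 and 57.8 on replicate 1 to 74.8 on replicate 3, arrays between which the genes of other tissues differed in the same direction. Of the 23 fibroblast genes 19, 21, 15, 19 and 17 were above background on replicates 1 to 5. Replicate 3 had the fewest, as it had of all 14217 genes (9393, 8070, 5752, 6528 and 8761). Schwann cell markers were lowest on replicate 5 at 42.4 and highest on replicate 4 at 66.6. Macrophage and leucocyte markers stood at 74.1 on replicate 1 and at 37.2 to 49.1 on the others. By median percentile, replicate 1 thus held the top rank of macrophage markers and, together with replicate 5, of synaptic genes. On the same scale macrophage, fibroblast and Schwann cell markers were all lowest on replicate 5. By members above background they were not. Macrophage and Schwann cell markers had 11 of 23 and 9 of 15 on replicate 5, and the fewest, 5 and 6, on replicate 3. All genes above background were also fewest on replicate 3 (5752, against 8761 on replicate 5). These member counts thus cannot be set against the percentile ranks.

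**Figure D5:**
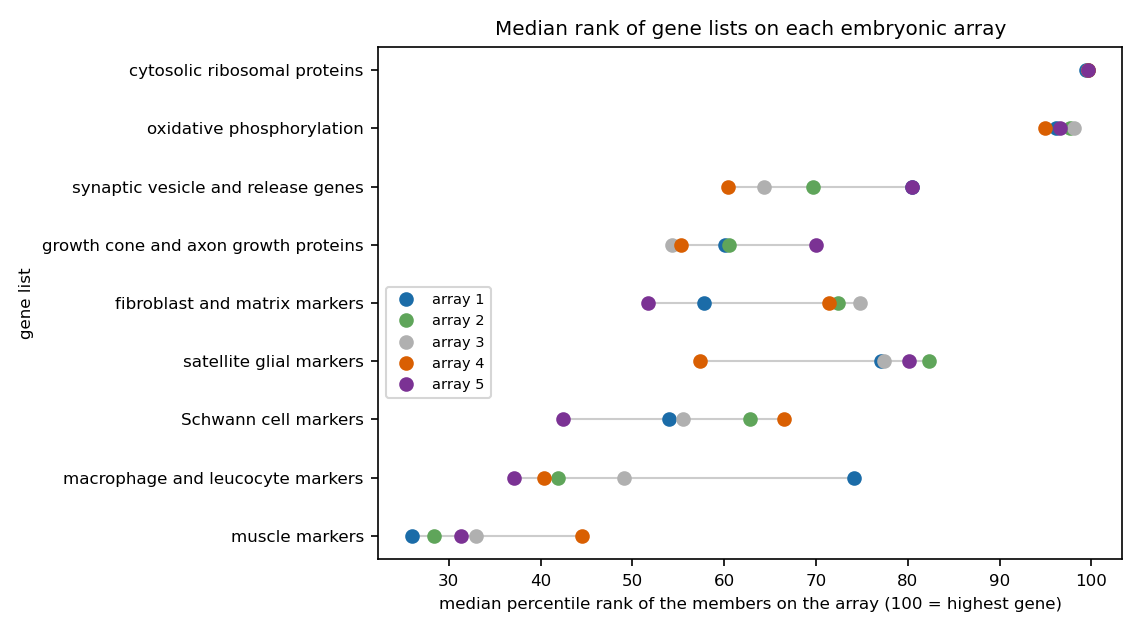
The median percentile rank of each gene list's members is plotted for the 5 embryonic arrays, joined by a grey line. Ribosomal and oxidative phosphorylation genes keep their place on all arrays, while macrophage markers reach 74.1 on replicate 1 alone and satellite glial markers drop to 57.3 on replicate 4.

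Replicates 4 and 3 had the most genes apart from all other arrays. At least 2 below every other array were 252 genes on replicate 4 and 199 on replicate 3, against 2, 38 and 10 on replicates 1, 2 and 5. At least 2 above every other were 195 on replicate 4, 145 on replicate 5, 111 on replicate 1, 93 on replicate 3 and 36 on replicate 2. On replicate 4 the asparaginyl-tRNA synthetase Nars1 was at 2.87, against 7.51 to 9.56 elsewhere, and the chaperone Hspa5 of the endoplasmic reticulum was at 2.88, against 7.02 to 8.52. The basement membrane collagen Col4a5 was at 8.27 there and at 2.69 to 4.15 elsewhere. On replicate 1 the lysosomal macrophage marker Cd68 was at 8.98, against 3.13 to 5.08, and Mpeg1, a macrophage pore-forming protein, at 7.50, against 2.39 to 3.12. On replicate 3 Eif2s3y, the form of an initiation factor subunit encoded on the Y chromosome, was at 1.76, against 6.20 to 7.15 on the other arrays. On replicate 5 the myelination factor Egr2 was at 7.0, against 2.62 to 3.02, and the Schwann cell factor Sox10 at 2.92, against 5.38 to 6.48.

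The head of the ranking was shared more widely than its tail. There were 56 genes in the top 100 of every array and 174 in the top 100 of at least 1. Of the 100 genes with the highest means, 84, 88, 81, 76 and 82 were in the top 100 of replicates 1 to 5 taken alone. For the top 500, 216 genes were in it on every array. Leaving out any 1 array kept 93 to 98 of the top 100, with the fewest kept when replicate 4 was left out.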

How the data were processed

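Affymetrix Rat Genome 230 2.0 arrays were hybridised with axonal cRNA, and the authors deposited a table of log2 values made with RMA, per the submitters' processing notes. The sources used here do not state its version or options. Base 2 was read from the range of the values. The table held 31099 probe sets, of which 57 were controls, 20826 had a single symbol, 436 several and 9780 none. The highest-mean probe set over the 5 embryonic arrays stood for a gene. The adult arrays were not used and no test was made.

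Members and gene lists were chosen with earlier results of these data known. Genes named by rule were the 40 highest, the 6 steadiest in each of 3 bands of level, the 20 widest variable genes, the 3 highest and 2 most variable members of each of 28 lists, and 10 set genes. Other named genes were chosen after their values were seen. Gene numbers of 20758 probe sets matched RefSeq. The calls were tried on simulated data with planted steady and variable genes far from the limits used. This does not measure their accuracy on these arrays. Alternatives were quantile and median scaling, other probe set rules, another background percentile and each array left out. Python 3.11.15, pandas 2.3.3, numpy 2.4.6 and matplotlib 3.10.9 were used.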

Additional observations from a re-analysis of the deposited data

Results flagged for a closer look

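An array was set apart where its gap to the nearest other array, divided by the range of the 5, exceeded 0.71, the 95% critical value of Dixon's ratio for 5 values. Chance alone sets apart about 1 in 20 groups, and here 15 of 178 named genes and 1240 of all 14217 genes met it. On replicate 4 the low genes were Nefm at 10.04, the stalk protein gene Rplp0 of the ribosome at 8.86, Stmn2 at 6.99, the dynactin subunit Dctn5 at 2.67, the cold-induced RNA-binding protein Rbm3 at 6.44, Hspa5 at 2.88, the peroxiredoxin Prdx5 at 3.91 and the homeobox gene Hoxa5 at 3.35. The troponin Tnnc1 was high there at 7.91. On replicate 3 the complex I subunit Ndufs1 was low at 3.85, the ubiquitin ligase subunit Skp1 at 4.37 and Fkbp1a at 9.51. On replicate 5 Rpl35a was high at 10.96 and Mpc2 low at 7.87, each a small deviation in a steady gene. On replicate 2 the proteasome subunit Psma7 was high at 9.92.

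In median percentile rank, ribosomal proteins were lowest on replicate 1 at 99.4, within a very narrow range, redox and iron genes lowest on replicate 4 at 75.7, satellite glial markers lowest on replicate 4 at 57.3 and imprinted genes highest on replicate 3 at 94.1. By summed level the satellite glial markers were not lowest on replicate 4, at 11.25 against 10.34 on replicate 3. Imprinted genes above background were fewest on replicate 3, 9 of 15, where all genes above background were also fewest (5752 of 14217).

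Among the 100 highest probe sets of any kind, 17 have no symbol in the annotation used and 23 have several. The unnamed ones included ranks 2 to 4, at 13.98, 13.85 and 13.68. Those with several symbols included probe sets shared by Rpl32 (12.71), Rps2 (12.42), the RNA-binding protein Ybx1 (12.31) and the ferritin chain Fth1 (12.20) with their copies. These transcripts are missing from the gene ranking.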

How the results depend on the processing

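Counts were recomputed under each alternative, and those that moved by more than 1.5 times were few. Steady genes numbered 682, and 3921 with no filter on background, which adds genes that are low on every array. Variable genes numbered 43, and 19 with the mean of a gene's probe sets. Leaving out 1 array gave 4351 to 5483 genes above background on the remaining arrays, 960 to 1383 steady and 17 to 37 variable genes, 93 to 98 of the top 100 kept, and 36 to 37 ribosomal proteins in the top 500, and steady and variable genes moved so far without replicate 3 (1383 and 26) and without replicate 4 (1341 and 17). Quantile normalization gave 581 steady genes, 366 of them among the 682, and 49 variable genes, 36 of them among the 43. The level of 38 of 178 named genes moved by more than its SD with the mean of probe sets, of 5 of 177 when probe sets of shared sequence were dropped, and of 0 under other scalings or without any 1 array. No paired analysis was possible because no result comes from a test between groups. Arrays without detection calls set no limit of detection beyond the background level used here, and weak signals near it are compressed.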

Other observations

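Immediate early genes, which neurons and glia switch on within minutes of stimulation or handling, and genes of cholesterol synthesis were examined as lists added after values had been seen, and so carry no weight as support. Of 19 immediate early genes 12 had their highest value on replicate 5. The median percentile rank was 85.6 there, 76.3 on replicate 3 and 56.8 to 64.1 on the other arrays. Fos, a subunit of the AP-1 transcription factor, read 9.08, 5.76, 6.51, 7.40 and 10.04, and the stress factor Atf3, known from injured sensory neurons, read 5.13, 1.89, 6.07, 4.80 and 8.19. Jund, another AP-1 subunit, was the highest of the list at 9.43 ± 0.50 (SD, n = 5) and above background on all arrays.

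Of 17 cholesterol synthesis genes 11 were highest on replicate 5, where the median percentile rank was 85.4, against 70.6 to 80.6 on the other arrays. Farnesyl diphosphate synthase (Fdps) was high throughout at 9.18 ± 0.36, whereas Idi1, which acts just before it, read 6.31, 4.99, 2.70, 4.79 and 8.21. Cyp51, of the later part of the pathway, was likewise lowest on replicate 3 and highest on replicate 5 by its higher probe set, but not by its other one.

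In the annotated promoters, TATAAA was searched on the gene's strand only in a short stretch upstream of the start. It was found in 5 of 80 genes of the top 100 (6.25%), in 2.27% of all 11700 genes and in 4.61% of the 2883 genes above background on 0 arrays. The median number of CG pairs was counted from 250 bases before to 50 after the start. It was 22 for genes above background on all 5 arrays and 9 for genes above it on none.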
